A study of Mus musculus with 14 samples.

Results

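Iltifb, Epor, Pkp3, Igfbp3, Apip, Gskip, Akain1, Tmem200b, Gm20498 and Rsph3b are 10 of the 24100 genes in a count table from mouse cerebellum. They are not classical markers of Purkinje cells, and they were chosen for a strong and consistent log2 TRAP over input. Their counts were much higher in RNA pulled down with tagged Purkinje ribosomes than in RNA of the whole tissue. That difference therefore chose the genes, and it is given here as a description with no test. All 10 were measured in every library and passed the filter on low counts in each fit.

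All libraries came from cerebella at postnatal day 21 of mice with the transgene Tg(Pcp2-Egfp-L10a), in which the promoter of the Purkinje gene Pcp2 drives a ribosomal protein, L10a, fused to the fluorescent protein EGFP. Translating ribosome affinity purification (TRAP) captures these ribosomes with antibodies against GFP, and a small part of the cleared homogenate kept back before the capture is the input. Mice were Astn2 wild type (WT) or Astn2 KO, a knockout of the gene for astrotactin 2. The groups were 4 libraries of input WT (1 female, 3 male), 3 of input KO (2 female, 1 male), 3 of TRAP WT (1 female, 2 male) and 4 of TRAP KO (2 female, 2 male), and every group, controls included, carried the transgene. The labels do not say whether libraries came from separate animals or pools, so a p-value measures the spread between libraries, which may be technical.

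Purkinje cells are the inhibitory output neurons of the cerebellar cortex. Each receives excitation from parallel fibres of granule cells and from a climbing fibre, and projects to the deep nuclei. TRAP with a Pcp2-driven tag recovers messenger RNA bound to their ribosomes, so RNA of Purkinje cells makes up more of the pulldown than of the whole tissue. It remains an enrichment of bulk RNA: expression, ribosome loading and recovery cannot be told apart, nor can fewer cells of a type and less RNA per cell.

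The libraries held between 18.8 and 54.2 M counts each (M is 1e6). Astn2 ran from 88.7 to 104 counts per 1e6 counts (CPM) in input WT and from 0.729 to 0.968 CPM in input KO, and from 117 to 146 CPM in TRAP WT and 1.06 to 2.11 CPM in TRAP KO, as the genotype labels say. All 12 Purkinje markers listed were higher in TRAP in both genotypes, and their summed level went from 6366 to 7174 CPM in input WT up to 66300 to 83980 CPM in TRAP WT. All 8 granule cell, 8 astroglial, 8 oligodendrocyte and 5 microglial markers were lower in TRAP in both genotypes by edgeR's quasi-likelihood test. Of 7 inhibitory interneuron, 5 choroid plexus and 5 meningeal markers, 1 each (Prkcd, Clic6 and Slc6a13) was higher in both genotypes, and of 4 red cell markers 1 was lower in WT and 3 in KO. Library TRAP WT 3 stood apart: its log2 levels differed from the rest of its group with an SD of 0.609 over genes, against 0.152 to 0.455 in the other libraries. Pcp2 took 1.37% of its counts and 0.627% to 0.917% of the counts in the other TRAP libraries. For part of the values that rest on this library, a value without it is given as well.

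Levels below are CPM scaled with TMM factors, which are meant to correct for the different makeup of TRAP and input RNA. The zero point of TRAP over input depends on this choice. With library totals instead, the median gene shifted by -0.82 in WT and -0.73 in KO. Each of the 10 genes was higher in every TRAP library than in any input library of the same genotype. The ratio of the lowest TRAP library to the highest input library ran from 8.13 for Gm20498 to 16.7 for Iltifb in WT, and from 7.16 for Gm20498 to 12.1 for Iltifb in KO. By log2 TRAP over input from the fit, the genes spanned 3.19 to 4.91 in WT (median 3.55) and 2.97 to 4.36 in KO (median 3.44). Among 16042 genes ordered by that value they held ranks 9 to 258 in WT and 25 to 276 in KO. Over all genes fitted, 37.0% were called higher in TRAP in WT, 36.3% in KO and 34.3% in both, and nothing is read from the members' own share, since the contrast chose them. Pcp2 itself stood at 4.99 in WT and 4.52 in KO. Without TRAP WT 3 the 10 genes spanned 3.19 to 4.52 in WT. For all other genes below, rose, fell, higher and lower in TRAP mean a call by edgeR's quasi-likelihood test (adjusted p under 0.05 over all genes), and their values are log2 TRAP over input, WT first and then KO where both are given.

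**Figure D1:**
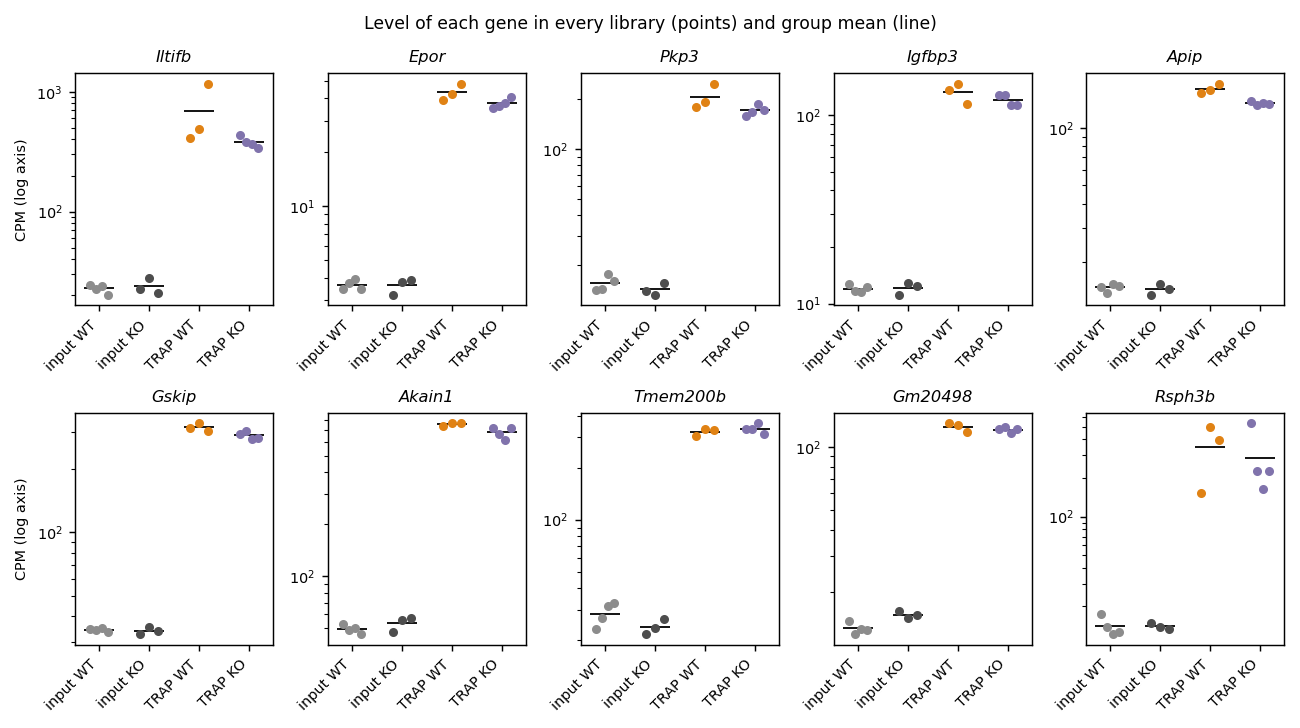
CPM of each gene in every library on log axes that differ between panels, with points for libraries and a line for the group mean. TRAP points lie above all input points in each panel. Iltifb in TRAP WT and Rsph3b in both TRAP groups are spread widely.

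**Figure D2:**
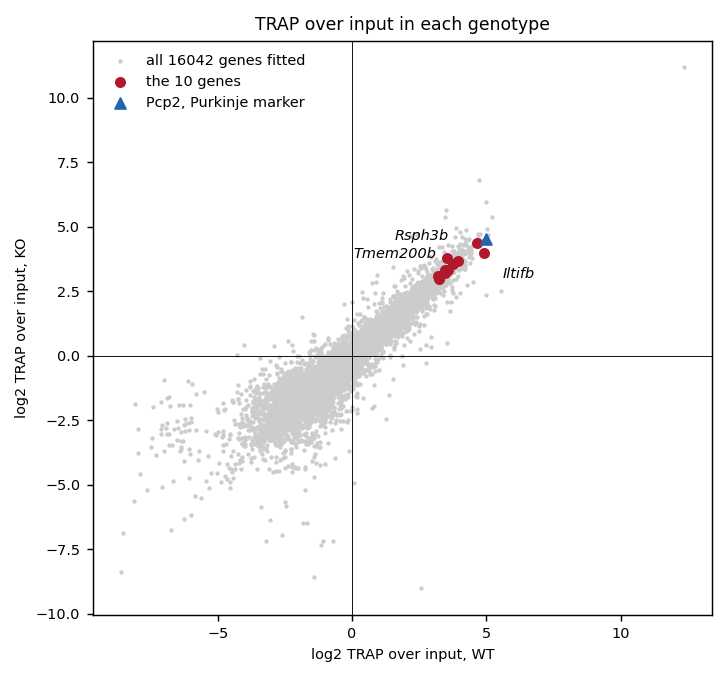
Log2 TRAP over input in WT (horizontal) and in KO (vertical) for the 16042 genes fitted in grey, the 10 genes in red and Pcp2 as a triangle. The 10 genes lie at the upper end in both genotypes, between 3.19 and 4.91 in WT and between 2.97 and 4.36 in KO.

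Iltifb (Entrez 116849; GRCm38 chr10:118289629-118295038, minus strand) is the second mouse copy of the gene for interleukin 22, a cytokine that lymphoid cells secrete and that acts on epithelia through a receptor of IL22RA1 and IL10RB. Its level was 24.5, 22.7, 24.1 and 20.2 CPM in the 4 input WT libraries and 22.8, 28.1 and 20.8 CPM in input KO. In TRAP it was 411, 492 and 1166 CPM in WT and 439, 384, 364 and 341 CPM in KO. The TRAP libraries sat far above input in both genotypes, and TRAP WT 3 had the highest level of all. The group means gave a 30.1-fold difference in WT and a 15.97-fold difference in KO. On the log2 scale the values were 4.91 and 3.99, and 4.25 in WT without TRAP WT 3.

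The likeness of Iltifb to Il22 limits what its count can mean. Their coding sequences, both 537 bases long, differ at 9 positions (98.3% identity), and 51.9% of the 31-base words in Iltifb transcripts also occur in Il22. Among ungapped stretches of 90 coding bases within a single exon of both copies, one with the most differences is shown. A short read from the rest of this stretch belongs to both copies. It lies at GRCm38 chr10:118294840-118294929, minus strand, for Iltifb and chr10:118205051-118205140, plus strand, for Il22 (capitals mark the differing bases).
Iltifb: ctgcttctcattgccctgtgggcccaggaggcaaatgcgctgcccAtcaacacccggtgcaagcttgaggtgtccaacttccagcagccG
Il22: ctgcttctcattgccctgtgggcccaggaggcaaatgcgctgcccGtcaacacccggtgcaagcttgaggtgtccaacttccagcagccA
Counted from the first base of the coding sequence, the substitutions from Iltifb to Il22 in this stretch are A106G and G150A.

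Il22 (Entrez 50929) was counted at 3.90 ± 0.373 CPM in input WT (SD, n = 4). In TRAP WT it was 38.0, 47.9 and 70.4 CPM, and in TRAP KO 35.0, 33.8, 33.8 and 23.8 CPM. It rose in TRAP by 3.74 ± 0.22 in WT (log2, SE; edgeR's quasi-likelihood adjusted p = 3.52e-09) and by 2.95 ± 0.23 in KO (adjusted p = 6.18e-08), and by 3.42 in WT without TRAP WT 3. Iltifb took 83.02% to 87.16% of the counts of both genes in input and 91.1% to 94.3% in TRAP. With both copies summed, log2 TRAP over input was 4.79 in WT and 3.88 in KO.

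Other genes of the interleukin 22 pathway had calls in both directions. Of 9 tested, 2 were higher and 4 lower in TRAP WT, with 3 not passing, and in KO 2 were higher and 5 lower. Among all genes 37.0% were higher and 38.5% lower in WT, and 36.3% and 39.6% in KO. The higher genes were Il22 and Il20ra. Of the 31-base words of Il22, 53.6% occur in Iltifb, and how many Il22 counts came from Iltifb RNA was not tested. Il20ra, a receptor chain for related cytokines, rose by 3.52 in WT and 3.69 in KO from 0.161 to 1.69 CPM in WT. At these low levels single libraries mattered: Il20ra had 2.69 in WT without TRAP WT 3, and in KO 4.35 without input KO 2 and 3.11 without input KO 3. Il20rb fell by 2.72 in WT, Il10rb, the shared receptor chain, fell by 2.03 and Il10ra fell by 1.68. Il10rb had -3.57 without TRAP WT 2 and -1.33 without TRAP WT 3. Il22ra1 was at 0.484 CPM in input WT and 0.389 CPM in TRAP WT. Summed markers of lymphocytes ran from 5.93 to 8.84 CPM in input WT and from 2.12 to 3.15 CPM in TRAP WT, in KO from 5.43 to 6.85 CPM in input and from 2.26 to 3.16 CPM in TRAP. Of these 8 genes, Ifng and Il17a had 0 counts in every library, where 3 counts would be 0.0438 to 0.205 CPM, and Cd3e was at 0 in every TRAP library. Ifng is also the gene next to Iltifb on the side away from Il22.

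Epor (Entrez 13857; chr9:21958897-21963576, minus strand) encodes the erythropoietin receptor, which keeps red cell precursors alive and signals through JAK2 and STAT5. It was 3.45, 3.74, 3.91 and 3.47 CPM in input WT and 3.21, 3.77 and 3.88 CPM in input KO. TRAP libraries had 39.2, 42.4 and 48.1 CPM in WT and 35.2, 35.97, 37.7 and 40.6 CPM in KO. All TRAP libraries lay in a narrow band, and input libraries in another. The means differed 11.9-fold in WT and 10.3-fold in KO, or 3.58 and 3.34 on the log2 scale. None of its 31-base words occurs in another annotated gene.

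Other genes of the erythropoietin pathway were lower in TRAP or did not pass. Of 9 genes tested, 0 were higher and 7 lower in TRAP WT, and in KO 0 were higher and 6 lower. Among all genes 37.0% were higher and 38.5% lower in WT, and 36.3% and 39.6% in KO. Jak2, the kinase on the receptor, fell by 0.67 in WT and 0.62 in KO, and Stat5b, its transcription factor, fell by 0.45 and 0.54. Epas1, a hypoxia factor that induces erythropoietin, fell by 1.89 and 1.82. Epo, the ligand, was at 0 counts in every TRAP library. Of 6 red cell markers listed 4 were measured, and their summed level ran from 1711 to 9380 CPM in input WT and 451 to 2724 CPM in TRAP WT, and from 458 to 3398 CPM in input KO and 105 to 875 CPM in TRAP KO. Within TRAP WT that sum varied several-fold and Epor varied 1.23-fold. Whether red cell RNA adds to the Epor count was not tested.

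Igfbp3 (Entrez 16009; chr11:7206086-7215498, minus strand) encodes a secreted protein that binds insulin-like growth factors (IGFs) and carries them in blood. Its level was 11.6 to 12.6 CPM in input WT and 11.1 to 12.9 CPM in input KO. In TRAP WT it was 137, 147 and 116 CPM, and in TRAP KO 128, 129, 114 and 114 CPM. Here TRAP WT 3 was the lowest of its group, and the means differed 11.1-fold in WT and 9.99-fold in KO (3.46 and 3.33 on the log2 scale). Of the 15 IGF genes tested, 2 were higher and 7 lower in TRAP WT, and 2 higher and 10 lower in KO. The shares over all genes were 37.0% higher and 38.5% lower in WT, and 36.3% and 39.6% in KO. The binding protein Igfbp6 rose by 3.53 and 3.86 and the growth factor Igf1 by 2.09 in each genotype. Igf2 fell by 3.04 in WT. Pappa, a protease that cuts IGF binding proteins, fell by 4.79 in WT, and Igfbp5 fell by 2.38. Among IGF binding proteins listed and tested, Igfbp6 was thus the other that was higher in TRAP, and 3 (Igfbp4, Igfbp5 and Igfbp7) were lower in WT.

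Pkp3 (Entrez 56460; chr7:141078229-141090511, plus strand) encodes plakophilin 3, a plaque protein of desmosomes, the junctions that hold epithelial cells together. It ran from 14.1 to 17.7 CPM in input WT and from 13.3 to 15.7 CPM in input KO. In TRAP it was 180, 191 and 247 CPM in WT and 159, 168, 186 and 171 CPM in KO. TRAP WT 3 was again the highest, and the means differed 13.2-fold in WT and 11.9-fold in KO (3.74 and 3.55 on the log2 scale, 3.58 in WT without that library). None of its 31-base words is shared with another gene.

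Of 11 genes tested on the list of Pkp3's desmosome and junction partners, 2 were higher and 7 lower in TRAP WT, and 3 higher and 7 lower in KO, beside 37.0% and 36.3% of all genes higher and 38.5% and 39.6% lower. Dsc2, a desmosomal cadherin, fell by 4.83 and 3.12, Evpl and Ppl, plaque linkers, fell by 2.59 and 2.53 in WT, and Pkp2 fell by 1.64 and 1.62. Dsp, the linker to keratin filaments, was at 0.134 CPM in input WT and 0.117 CPM in TRAP WT and was not tested. Ctnnb1, the adherens junction protein beta-catenin, was higher by 1.00 in WT and 0.56 in KO, and Cdh2, N-cadherin, by 0.37 and 0.34. With library totals in place of TMM factors, Cdh2 turned to -0.45 and -0.39 and Ctnnb1 to 0.18 in WT, which did not pass, and -0.18 in KO. The KO call of Ctnnb1 was also lost without input KO 2 (0.50), input KO 3 (0.47) or TRAP KO 1 (0.38), and that of Cdh2 without input KO 3 (0.29). Dsc2 had -5.42 in WT without TRAP WT 2, and Evpl -3.29 without TRAP WT 1. Summed epidermal markers (Krt5, Krt14, Dsg3, Dsc3, Trp63) were at most 1.29 CPM in any library and 0.342 CPM in TRAP WT.

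Apip (Entrez 56369; chr2:103073675-103092649, plus strand) encodes an enzyme of the methionine salvage pathway that also binds the apoptosis factor APAF1. It was 14.8, 13.8, 15.3 and 15.0 CPM in input WT and 13.4, 15.4 and 14.4 CPM in input KO. The TRAP levels were 152, 158 and 170 CPM in WT and 137, 132, 135 and 134 CPM in KO. Every TRAP KO library was below every TRAP WT library, while the input groups overlapped. The means differed 10.9-fold in WT and 9.35-fold in KO (3.44 and 3.22 on the log2 scale).

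Salvage and APAF1 genes were divided. Of 12 tested, 5 were higher and 2 lower in TRAP WT, and 6 higher and 2 lower in KO. The shares over all genes were 37.0% higher and 38.5% lower in WT, and 36.3% and 39.6% in KO. Cycs, the cytochrome c that activates APAF1, rose by 2.96 and 2.54, Casp9, the protease it recruits, by 2.03 and 1.95, and Srm, which makes spermidine, by 1.40 and 1.15, the latter 0.42 and not passing with library totals. Apaf1 itself fell by 0.63 and 0.76 and Mat2a, which makes S-adenosylmethionine, by 0.85 and 0.67. Of the other enzymes of the salvage route, Mtap rose by 1.24 and 1.21, Mri1 had 0.19 in WT, which did not pass, and rose by 0.32 in KO, and Enoph1 (0.03 and 0.14) and Adi1 (0.08 and 0.29) did not pass in either genotype.

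Gskip (Entrez 66787; chr12:105685352-105703058, plus strand) encodes a small protein that anchors protein kinase A and binds glycogen synthase kinase 3. It ran from 33.7 to 35.1 CPM in input WT and from 32.8 to 35.5 CPM in input KO. In TRAP it was 314, 331 and 302 CPM in WT and 294, 303, 278 and 281 CPM in KO. These are 9.15-fold and 8.47-fold differences of means (3.19 and 3.09 on the log2 scale), and TRAP WT 3 was the lowest of its group. Of its 31-base words 8.87% occur in Atg2b transcripts on the other strand, so their reads could be told apart only by a strand-aware count, and the strand setting is not given in the sources used here.

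Akain1 (Entrez 320722; chr17:69437911-69489233, plus strand) encodes another small protein that binds regulatory subunits of protein kinase A. It was 52.5, 48.6, 50.2 and 46.2 CPM in input WT and 47.7, 56.0 and 57.3 CPM in input KO. The TRAP libraries gave 738, 773 and 770 CPM in WT and 722, 667, 620 and 720 CPM in KO. The WT libraries lay within 1.05-fold of each other, and each was above all KO libraries. The means differed 15.4-fold in WT and 12.7-fold in KO (3.94 and 3.67 on the log2 scale).

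Among 18 genes of protein kinase A and its anchors, 5 were higher and 8 lower in TRAP WT, and 4 higher and 9 lower in KO. The shares over all genes were 37.0% higher and 38.5% lower in WT, and 36.3% and 39.6% in KO. Prkar2b, a regulatory subunit that anchoring proteins hold, rose by 2.30 and 2.12, and Gsk3a, a kinase that GSKIP binds, by 1.27 and 1.23. Akap9 fell by 1.71 in each genotype, Pkib, a kinase inhibitor, by 1.38 and 1.32, and Akap5 by 1.17 and 1.52. Akap6 was higher by 0.99 in WT and had 0.43 in KO (adjusted p = 0.0686, edgeR), which passed without TRAP KO 3 (0.56) or TRAP WT 3 (0.42). With library totals it had 0.17 in WT, which did not pass, and -0.31 in KO. Genes on this list had mixed signs.

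Tmem200b (Entrez 623230; chr4:131919971-131923956, plus strand) encodes a membrane protein of a small family. It was 23.1, 26.7, 31.5 and 32.8 CPM in input WT and 21.7, 23.6 and 26.6 CPM in input KO. In TRAP it was 305, 337 and 331 CPM in WT and 334, 334, 364 and 313 CPM in KO. It was the one gene of the 10 whose fitted TRAP level was higher in KO, and the only one whose TRAP over input was higher in KO, at 14.03-fold against 11.4-fold in WT (3.79 and 3.53 on the log2 scale), a difference that was not tested. Both other family members went down: Tmem200a fell by 2.06 and 2.01, and Tmem200c by 1.70 and 2.02.

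Gm20498 (Entrez 105940408; chr12:81358852-81532911, minus strand) is an annotated read-through gene that joins Synj2bp, which encodes a mitochondrial outer membrane protein, to Cox16, which encodes a factor for the assembly of cytochrome c oxidase. Its level was 14.6, 12.6, 13.3 and 13.1 CPM in input WT and 16.2, 15.1 and 15.5 CPM in input KO, so all KO input libraries lay above all WT input libraries. The TRAP levels were 130, 127 and 118 CPM in WT and 122, 125, 116 and 122 CPM in KO. The means differed 9.35-fold in WT and 7.78-fold in KO (3.22 and 2.97 on the log2 scale).

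Of its 3241 exonic bases in GENCODE M21, 13.1% lie in Synj2bp exons, 65.7% in Cox16 exons and 21.2% in neither, and 76.2% of its 31-base words occur in other genes. How many of its reads fell on shared bases is not known from gene counts. Synj2bp fell in TRAP by 0.62 in WT and 0.55 in KO. Cox16 rose by 2.29 and 2.23, but its TRAP WT libraries were 47.9, 78.9 and 20.7 CPM, with TRAP WT 3 lowest. Its WT value ran from 1.57, without TRAP WT 2, to 2.65 as single libraries were left out. Gm20498 took 11.7% to 16.3% of the counts of the 3 genes in input and 47.3% to 68.0% in TRAP. With the 3 genes summed, log2 TRAP over input was 1.13 in WT and 1.09 in KO, the largest move in that value of any of the 10 genes under the settings run.

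Rsph3b (Entrez 100037282; chr17:6904716-6948356, minus strand) encodes a radial spoke protein of motile cilia, and Rsph3a (Entrez 66832) is a near copy on the same chromosome. Rsph3b was 17.3, 13.9, 12.2 and 12.6 CPM in input WT and 14.9, 13.8 and 13.4 CPM in input KO. In TRAP it was 154, 495 and 395 CPM in WT and 535, 227, 163 and 228 CPM in KO. The input libraries lay close together, while TRAP libraries differed 3.22-fold within WT and 3.28-fold within KO. The means differed 24.8-fold in WT and 20.5-fold in KO (4.66 and 4.36 on the log2 scale).

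The aligned coding sequences of Rsph3b (1602 bases) and Rsph3a (1548 bases) were 95.8% identical, with 13 mismatches and 54 gap positions. Of Rsph3b's 31-base words, 68.5% occur in other genes on the same strand, and 58.5% occur in Rsph3a. Its share of words found on the other strand of other genes was the largest of the 10 genes, above the 8.87% of Gskip. How far reads from other genes add to the Rsph3b count was not tested. Among ungapped stretches of 90 coding bases within a single exon of both copies, one with the most mismatches is given. It lies at GRCm38 chr17:6948175-6948264, minus strand, for Rsph3b and chr17:7946017-7946106, plus strand, for Rsph3a (capitals mark the differing bases).
Rsph3b: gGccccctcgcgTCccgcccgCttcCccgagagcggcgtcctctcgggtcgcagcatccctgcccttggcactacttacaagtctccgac
Rsph3a: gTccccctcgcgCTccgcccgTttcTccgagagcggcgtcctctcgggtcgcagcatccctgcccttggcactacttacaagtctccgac
Counted from the first coding base of Rsph3b, the substitutions from Rsph3b to Rsph3a here are G263T, T274C, C275T, C283T and C287T.

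Rsph3a was 25.1 ± 0.667 CPM in input WT (SD, n = 4), and 75.7, 58.7 and 122 CPM in TRAP WT. It rose in TRAP by 1.78 ± 0.18 in WT (log2, SE; edgeR's quasi-likelihood adjusted p = 9.21e-07) and by 1.43 ± 0.19 in KO (adjusted p = 1.18e-05). As single libraries were left out, the WT value of Rsph3a ran from 1.40 to 1.95. In TRAP WT the library with the lowest Rsph3a had the highest Rsph3b. Rsph3b took 31.2% to 40.4% of the counts of both in input and 67.0% to 89.4% in TRAP. With the copies summed, log2 TRAP over input was 3.47 in WT and 3.15 in KO. Of the 6 genes tested on the list of TMEM200 and radial spoke genes, Rsph3a was the only one higher in TRAP in either genotype. On this list 4 were lower in WT and 5 in KO. The shares over all genes were 37.0% higher and 38.5% lower in WT, and 36.3% and 39.6% in KO. Rsph1, another spoke gene, fell by 1.97 and 1.20, with the KO call lost without input KO 2 (-0.72). Summed markers of ependymal and ciliated cells ran from 13.1 to 17.8 CPM in input WT and from 9.46 to 10.2 CPM in TRAP WT, and from 10.8 to 20.4 CPM in input KO and 6.19 to 9.79 CPM in TRAP KO.

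**Figure D3:**
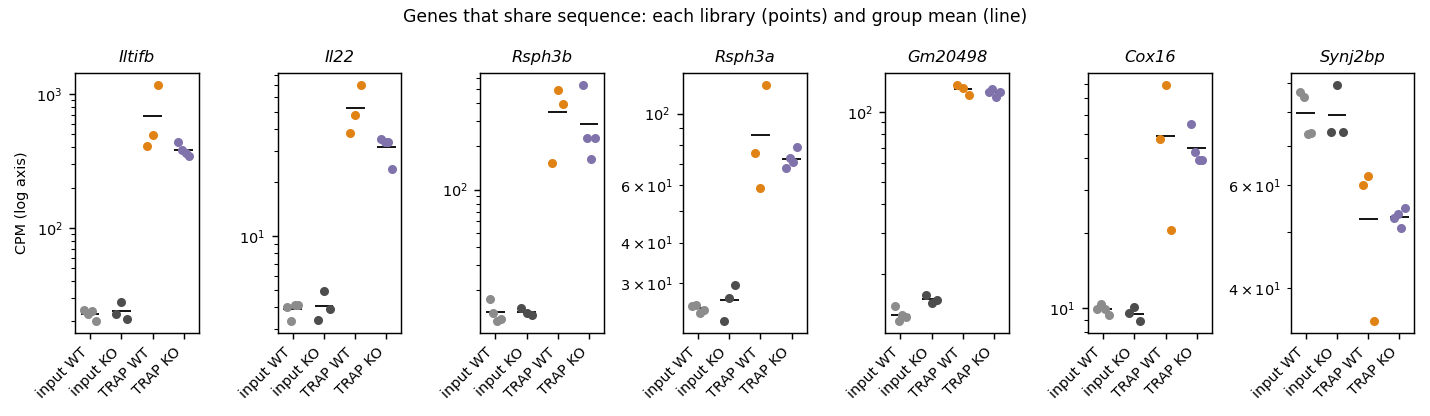
CPM of Iltifb with Il22, Rsph3b with Rsph3a, and Gm20498 with Cox16 and Synj2bp, on log axes that differ between panels, with points for libraries and a line for the group mean. Il22, Rsph3a and Cox16 are higher in TRAP, Synj2bp is lower, and the TRAP WT points of Cox16 run from 20.7 to 78.9 CPM.

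Across all pathway lists, 90 genes were named, 89 had a row and 80 were tested. In WT 17 were higher in TRAP, 39 lower and 24 did not pass, with a median log2 of -0.61 against -0.09 over all genes. In KO 18 were higher, 44 lower and 18 did not pass, with a median of -0.63 against -0.11. Of all genes, 37.0% were called higher and 38.5% lower in WT, and 36.3% and 39.6% in KO. Il22 and Rsph3a, which share sequence with members, are counted among the genes that were higher. Without TRAP WT 3, 21 were higher and 42 lower of 82 tested in WT. Scaling by library totals instead shifted the median gene by -0.82 (WT) and -0.73 (KO), and the members then spanned 2.37 to 4.09 and 2.24 to 3.61.

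The genes beside each member on the chromosome were counted next. Of 26 neighbouring or overlapping genes, 23 were tested. In WT 9 were higher in TRAP, 7 lower and 7 did not pass, and in KO the numbers were 8, 8 and 7. The shares over all genes were 37.0% higher and 38.5% lower in WT, and 36.3% and 39.6% in KO. By orientation, the 3 genes tested that start head to head with a member were all higher in both genotypes, where 34.3% of all genes were, and the call of 1 of them, Atg2b, depended on the settings given below. Of 14 on the same strand, 4 were higher and 5 lower in WT, and of 6 that end tail to tail, 2 were higher and 2 lower. These counts include genes that share sequence with members. They are Il22 (tail to tail, higher), Cox16 (same strand, higher), Synj2bp (same strand, lower) and Atg2b (head to head, higher). Atg2b shares words with Gskip on the other strand, 8.87% of those of Gskip.

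Pdhx, a component of pyruvate dehydrogenase, starts 161 bases from Apip on the other strand and rose by 1.41 ± 0.09 in WT and 1.19 ± 0.10 in KO. Gm12992, a long noncoding gene, overlaps the start of Tmem200b by 59 bases and rose by 3.30 ± 0.15 in WT and 2.85 ± 0.15 in KO, from 3.87 to 38.0 CPM in WT. Atg2b, an autophagy gene 54 bases from Gskip, was higher by 0.43 ± 0.13 and 0.33 ± 0.13, but turned to -0.39 and -0.40 with library totals. The WT call of Atg2b was also lost without TRAP WT 2 (0.31). The KO call was lost without input KO 1 (0.35), input KO 2 (0.28), TRAP KO 1 (0.27) or TRAP KO 4 (0.25), with no filter on low counts (0.32) and with the replicate block (0.25). Tmem200b lay closest to its partner, at 3.53 against 3.30 in WT; the members were chosen for high values on this scale, so nothing is read from their exceeding their neighbours.

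The other neighbours had calls in both directions. Rgl3, 7602 bases from Epor, fell by 2.19 and 1.90. Swsap1, a DNA repair gene whose end lies 626 bases from the end of Epor, rose by 2.07 and 1.63. Its WT value ran from 1.82 to 2.22 as single libraries were left out. Tns3, beside Igfbp3, fell by 1.69 and 1.59, and Slc8a3, beside Gm20498, by 1.67 and 1.60. Epb41, whose end overlaps Tmem200b by 544 bases on the other strand, fell by 0.80 and 0.84. C030034I22Rik, beside Akain1, rose by 1.64 and 1.58, and Tagap1, beside Rsph3b, by 1.14 and 0.97. B4galnt4 beside Pkp3 had 0.19 and 0.21 and Dlgap1 beside Akain1 had -0.16 and 0.02, and neither passed.

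**Figure D4:**
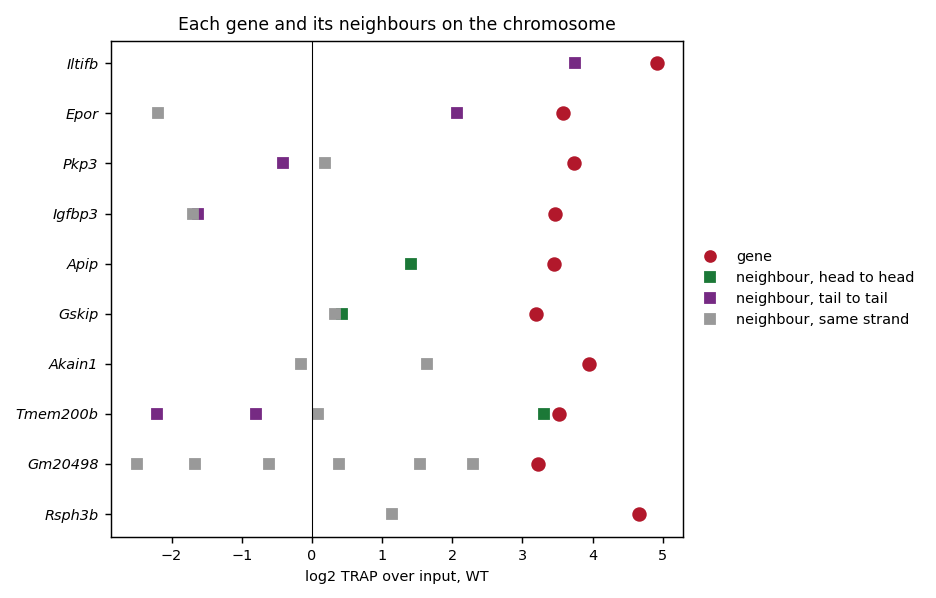
Log2 TRAP over input in WT for each of the 10 genes (circles) and its tested neighbours (squares, coloured by orientation). Every circle lies to the right of its neighbours, which the choice of members favours, and the closest pair is Tmem200b at 3.53 with Gm12992 at 3.30.

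RefSeq promoter windows (GRCm38.p6) were at hand for 9 members, all but Pkp3. For Igfbp3, Akain1 and Tmem200b the window lay inside the gene span given above, so it does not precede the outermost start. That of Tmem200b was chr4:131921521-131921770, away from the start that Gm12992 overlaps. The gap between the starts of Pdhx and Apip is shown because both genes were higher in TRAP (chr2:103073514-103073674, read on the plus strand). The bases before Iltifb are shown beside it because they had the lowest share of G and C of the 9 windows (chr10:118295039-118295288, minus strand).
Apip: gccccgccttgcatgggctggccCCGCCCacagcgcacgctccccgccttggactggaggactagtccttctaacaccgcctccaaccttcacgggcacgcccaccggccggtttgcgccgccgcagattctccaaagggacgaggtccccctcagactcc
Iltifb: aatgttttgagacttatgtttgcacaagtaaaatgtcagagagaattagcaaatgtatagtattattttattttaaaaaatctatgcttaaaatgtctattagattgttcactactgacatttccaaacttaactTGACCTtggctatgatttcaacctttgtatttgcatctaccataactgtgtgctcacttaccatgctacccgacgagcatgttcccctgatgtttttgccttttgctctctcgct
Capitals mark a match to GGGCGG, a GC box, in Apip (on the other strand) and to AGGTCA, an element that nuclear receptors bind, in Iltifb (on the other strand).

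In these windows of 250 bases, on both strands, GGGCGG was found in 4 of 9 members (44.4%) and in 43.1% of 18038 windows. The 4 were Apip, Epor, Rsph3b and Tmem200b, the last with a window inside its gene span. AGGTCA was found in 1 of 9 (11.1%) and in 12.5% of all windows. TATAAA, the TATA box, was found in 0 of 9 and in 2171 of the 18038 windows. The median share of G and C was 62.8% for the members and 55.6% for all windows, with Iltifb at 34.4% and Tmem200b at 78.4%. A match describes these letters and not a bound site.

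Per kilobase of the longest annotated transcript, the mean TRAP WT levels ran from 621 CPM per kb for Iltifb down to 24.6 CPM per kb for Epor. Between them came Akain1 at 316, Tmem200b at 237, Apip at 174, Rsph3b at 155, Gskip at 116, Pkp3 at 70.6, Igfbp3 at 55.0 and Gm20498 at 54.8 CPM per kb. The libraries of Rsph3b, at 68.5 to 221 CPM per kb, spanned those of Apip and Gskip, and the ranges of Igfbp3 and Gm20498 overlapped, so these neighbours in the order did not differ beyond their spread. All other adjacent pairs had ranges that did not overlap in TRAP WT. Pcp2 stood at 8556 CPM per kb.

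Iltifb and Rsph3b had the widest spread among TRAP libraries. The highest TRAP WT library was 1.05 to 1.37 times the lowest for the other 8 genes, 2.84 times for Iltifb and 3.22 times for Rsph3b. In TRAP KO it was 1.04 to 1.17 times for the 8, 1.29 times for Iltifb and 3.28 times for Rsph3b. Without TRAP WT 3 the ratio for Iltifb was 1.20, against 1.03 to 1.10 for the 8 genes, and that for Rsph3b stayed at 3.22. Without TRAP WT 1, its lowest library, Rsph3b had 1.25, against 1.00 to 1.29 for the 8 genes. Without TRAP KO 1, its highest, it had 1.40, against 1.02 to 1.16. Leaving out the highest or lowest library can only lower this ratio, so a drop by itself shows little. TRAP WT 3 was the highest library for 4 members (Iltifb, Epor, Pkp3 and Apip), as it was for Pcp2 and Il22.

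For each member the gene most alike in its level over the 14 libraries, by Pearson's r of log2(CPM + 1) among 13425 genes, was noted. Igfbp3 and Gskip were each other's closest (r = 0.9993). Akain1 was closest to Hes3 (0.9996), Epor to Inpp5a (0.9992), Apip to Rab4b (0.9989), Iltifb to Ifngr2 (0.9988), Gm20498 to Dbndd1 (0.9986), Pkp3 to Rabepk (0.9984), Tmem200b to Nsg1 (0.9975) and Rsph3b to Ctse (0.9961). With Pcp2, r ran from 0.9746 for Rsph3b to 0.9974 for Apip. The libraries fall into TRAP and input, so r mostly restates that division and any gene with a like shift scores high.

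Genotype was tested within each fraction. The genes were not chosen by KO against WT. They were chosen for consistent TRAP over input, which can disfavour genes whose TRAP level differs between genotypes. By edgeR's quasi-likelihood test with Benjamini-Hochberg adjustment over all genes, 0 of 10 members differed between KO and WT in TRAP (adjusted p = 1.00 for each) and 0 of 10 in input (smallest adjusted p = 0.355). Over all genes tested, 0.00707% were called in TRAP and 0.0188% in input. At an unadjusted p under 0.05 the members numbered 0 in TRAP and 1 in input, beside 212 of 14145 genes tested in TRAP and 2198 of 15997 in input. DESeq2's Wald test also called 0 members in either fraction, beside 3 of 14145 genes in TRAP and 294 of 15997 in input.

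In TRAP, 9 of 10 members had a lower fitted level in KO, with a median log2 KO over WT of -0.16 against 0.00 over all genes. Apip had -0.24 ± 0.14 (SE) with a 95% interval of -0.55 to 0.07, and Akain1 -0.15 ± 0.15 with an interval of -0.49 to 0.19. In these genes alone every KO library was below every WT library, 2 of 10 members, where 2.69% of all genes showed this. Without TRAP WT 3, Apip had -0.20 and Akain1 -0.14, and 9 of 10 members were below 0.

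Iltifb had the largest difference, -0.76 ± 0.36 (95% interval -1.57 to 0.05). It was -0.24 without TRAP WT 3 and -1.21 without TRAP WT 1, the lowest of its group. Il22 had -0.69 ± 0.25 and -0.44 without TRAP WT 3, and every KO library was below every WT library. Pcp2, whose promoter drives the tag, had -0.55 ± 0.22 and -0.28 without TRAP WT 3, again with every KO library below every WT library. Neither passed (adjusted p = 1.00, edgeR). The other 11 Purkinje markers lay between -0.24 and 0.23, with 8 below 0 and 3 above, and the KO and WT libraries overlapped for all 11. The part of Pcp2 in the members' values was not tested.

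None of the remaining genes passed the test. Rsph3b had -0.31 ± 0.56 (95% interval -1.60 to 0.98), wide enough to hold a change of either sign, and ran from -1.16 to 0.18 as single libraries were left out. Pkp3 had -0.23 ± 0.16, Epor -0.17 ± 0.14, Igfbp3 -0.15 ± 0.15, Gskip -0.13 ± 0.14, Gm20498 -0.05 ± 0.13 and Tmem200b 0.07 ± 0.15. The 95% intervals of these 6 genes all held 0, with the lowest bound at -0.58 and the highest at 0.40.

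In input the errors were smaller, from 0.06 to 0.13, and the median log2 KO over WT was -0.04. Gm20498 had 0.17 ± 0.07 (95% interval 0.01 to 0.33; unadjusted p = 0.0447, adjusted p = 0.355 by edgeR), and its KO libraries all lay above its WT libraries, as did those of 6.10% of all genes. Tmem200b had -0.13 ± 0.10, Rsph3b -0.11 ± 0.09 and Akain1 0.11 ± 0.08. The other 6 lay between -0.06 and 0.03. No gene of the pathway lists differed between genotypes by edgeR, 0 of 69 in TRAP and 0 of 80 in input, with 3 and 9 at an unadjusted p under 0.05. By DESeq2, and without input KO 2 by edgeR, 1 of the 80 did in input, Akap6. It had 0.53 by DESeq2 (adjusted p = 0.000442) and 0.59 without input KO 2 (adjusted p = 0.0277, edgeR). In the edgeR fit of all libraries it had 0.52 (adjusted p = 0.154). Over all genes in input, DESeq2 called 294 of 15997, and edgeR without input KO 2 called 158 of 16083.

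**Figure D5:**
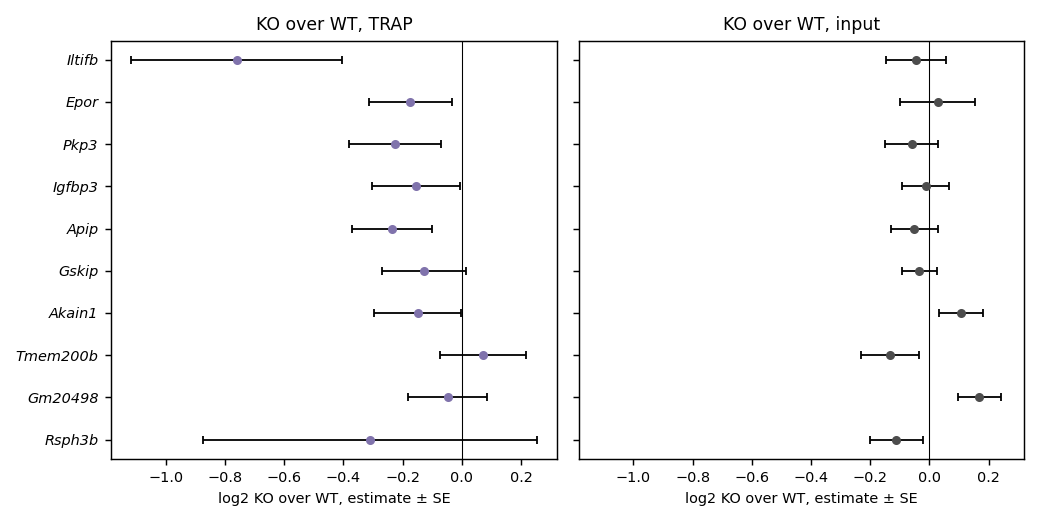
Log2 KO over WT for each of the 10 genes in TRAP (left) and input (right), as the fitted estimate with its SE as error bars. Points in TRAP lie below 0 apart from Tmem200b at 0.07, and Iltifb (-0.76 ± 0.36) and Rsph3b (-0.31 ± 0.56) have the widest bars.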

How the data were processed

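The deposited values are counts per gene, unnormalized whole numbers in 14 columns, 1 for each library, with Entrez gene numbers as row names. Per the submitters' processing notes, Salmon 0.8.2 and mm10 were used, with no role given; the strand setting is not given in the sources used here. Symbols matched for 24045 of 24100 genes (RefSeq, GRCm38.p6). Transcripts came from GENCODE M21.

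Counts were tested in R 4.3.3 with edgeR 4.0.16 (quasi-likelihood, TMM factors, filterByExpr, two-sided, Benjamini-Hochberg at 0.05). Genotype was tested within each fraction (7 libraries), adjusting for sex. The fit of TRAP against input took group means and sex over 14 libraries. The SE is the log2 difference over the square root of F. Intervals are at 95%. Counting error only bounds a count of 0, at 3 counts. The scripts were tested on simulated data with the same spread for every gene and no outlying library. That test does not cover a library such as TRAP WT 3.

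The members and lists were chosen with earlier results of these data known. Genes named were the members, similar copies, neighbours, Astn2, Pcp2, the most alike gene, and up to 3 highest and lowest of each list by log2 in WT. Outside that rule, other listed genes (Il22ra1, Dsp, Epo, Mtap, Mri1, Enoph1, Adi1, Igfbp4, Igfbp7, the markers Prkcd, Clic6 and Slc6a13 and those lowest or highest in KO) were named after their values were seen. Replicate numbers were not taken to pair libraries. Same-numbered input and TRAP libraries of a genotype agreed in sex and correlated from -0.125 to 0.292. Libraries with different numbers were not compared, so these values cannot tell whether the libraries were paired. Alternatives were other scalings, no filter, DESeq2 1.42.0, no sex term, a replicate block, 1 fit of all libraries, summed copies and each library left out. The spread of TRAP libraries without each library was added after seeing the data.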

Additional observations from a re-analysis of the deposited data

How the results depend on the processing

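All 10 members stayed higher in TRAP in both genotypes under every alternative run, and 0 were called between genotypes in any. With library totals in place of TMM factors, pathway genes higher in TRAP numbered 11 in WT and 10 in KO and those lower 63 in WT, neighbours lower numbered 12 in WT and 13 in KO, and calls over all genes were 3135 higher and 9801 lower in WT. The same setting turned Atg2b to -0.39 (WT) and -0.40 (KO), Cdh2 to -0.45 and -0.39, Ctnnb1 to -0.18 and Akap6 to -0.31 in KO, and Gm20498 KO over WT in TRAP to 0.0037. Pathway genes called between genotypes in input were 1 with DESeq2 and 0 to 1 with each library left out. Over all genes, DESeq2 called 294 of 15997 in input. Signs near 0 in input also turned: Iltifb to 0.048 without the sex term, 0.076 in 1 fit of all libraries and -0.13 to 0.075 with each library left out; Epor to -0.026 without the sex term and -0.0014 to 0.065 over left-out libraries; Igfbp3 over -0.051 to 0.037 and Rsph3b over -0.25 to 0.027. Rsph3b in TRAP ran from -1.16 to 0.18, the latter without TRAP KO 3. The causes were not tested. With the replicate block, 0 members were called, the members' log2 TRAP over input ran from 3.18 to 4.70 in WT, and Epor and Igfbp3 in input turned to -0.032 and 0.023; this block changed no call of a member. The lowest count behind a member was 114, for Epor in input WT 4.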
